A study of Mus musculus with 12 samples.

Results

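Cxcl9 and Cxcl10 encode small secreted chemokines that bind the receptor CXCR3, which is carried by activated T cells and natural killer cells. Macrophages and dendritic cells are among their best known sources. Cxcl9 is known as a target of interferon-gamma, and Cxcl10 as a target of interferon-gamma, of type I interferons and of NF-kB, so levels of both are often read as signs of interferon signalling in tissue. Another mouse CXCR3 ligand gene, Cxcl11, lies beside them, and RefSeq lists it as a transcribed pseudogene.

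Both genes were found by the symbols that the platform annotation gives to the probes of the array, and each had 1 annotated probe. They are 2 of the 13095 gene symbols listed for that array, and both probes passed the filter on low values, which asked that 3 or more of the 12 arrays detect a probe (detection p under 0.05). The genes were chosen by their levels in the 4 groups and by the difference of the carbon black effect between genotypes, as an earlier analysis of these data had given them. Their own values are therefore given as a description, with errors and without p-values.

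The 12 Illumina bead arrays held RNA of CD11c+ cells from mouse lung, labelled as antigen-presenting cells (APC) and isolated with AutoMACS, a magnetic separator. There were 4 groups of 3 arrays: Mir22 KO mice exposed to nCB (nanoparticulate carbon black), Mir22 KO mice given PBS (phosphate-buffered saline), wild-type (WT) mice exposed to nCB, and WT mice given PBS. All 4 groups carried the strain label B6(Cg)-Tyrc-2J/J and a labelled age of 4 months, and the protocol gives an exposure of 1 month begun at 2 months of age. The labels give no sex, no dose and no time between exposure and isolation, and whether each array stands for 1 animal, a pool or a repeat is not said, so the errors measure the spread between these samples, which may be technical.

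The labels give the genotype as Mir22-/- and name no cell type in which the deletion was made. No probe was listed for Mir22, so the genotype labels could not be checked on the deleted gene. The sequences below show both mature strands of the missing microRNA (RefSeq, GRCm38.p6, chromosome 11, plus strand), with the seed, bases 2 to 8, in capitals.
mmu-miR-22-3p: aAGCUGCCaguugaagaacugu
mmu-miR-22-5p: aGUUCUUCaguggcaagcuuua

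The promoters are shown because both genes were high in the same group, WT nCB. Each sequence is the 250 bases before the start site annotated by RefSeq (GRCm38.p6, minus strand), at chr5:92328080-92328329 for Cxcl9 and chr5:92348890-92349139 for Cxcl10. Capitals mark matches to an interferon-stimulated response element (ISRE, searched as GAAA, any 2 bases and GAAA again), to an NF-kB site and to the longest run that both promoters share.
Cxcl9: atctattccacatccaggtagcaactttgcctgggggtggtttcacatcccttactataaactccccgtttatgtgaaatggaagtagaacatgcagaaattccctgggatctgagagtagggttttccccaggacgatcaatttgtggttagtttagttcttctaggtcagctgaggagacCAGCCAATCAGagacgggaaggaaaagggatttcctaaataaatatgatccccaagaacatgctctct
Cxcl10: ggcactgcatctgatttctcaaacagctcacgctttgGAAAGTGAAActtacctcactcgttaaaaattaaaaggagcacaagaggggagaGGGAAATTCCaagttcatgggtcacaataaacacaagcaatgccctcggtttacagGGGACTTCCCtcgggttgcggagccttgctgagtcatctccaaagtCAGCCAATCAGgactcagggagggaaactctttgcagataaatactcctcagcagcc

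Both strands were searched, from 250 bases before to 50 bases after each start site. Cxcl10 held 1 ISRE match, GAAAGTGAAA, 213 to 204 bases upstream, and 3.44% of the 32851 windows of that length in the mouse table held one. It held 2 NF-kB matches, 159 to 150 and 103 to 94 bases upstream, against 4.51% of windows with at least 1. Cxcl9 held no match to either motif, and neither gene held the palindromic gamma-activated site TTCNNNGAA, which 8.30% of windows held. No match means that these letters are not in the window and says nothing about binding of a factor. The shared run, CAGCCAATCAG, lay 68 to 58 bases upstream in Cxcl9 and 57 to 47 bases upstream in Cxcl10. It was picked after the sequences were seen, 0.791% of windows hold it, and it contains the CCAAT box, which 37.4% of windows hold.

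**Figure D1:**
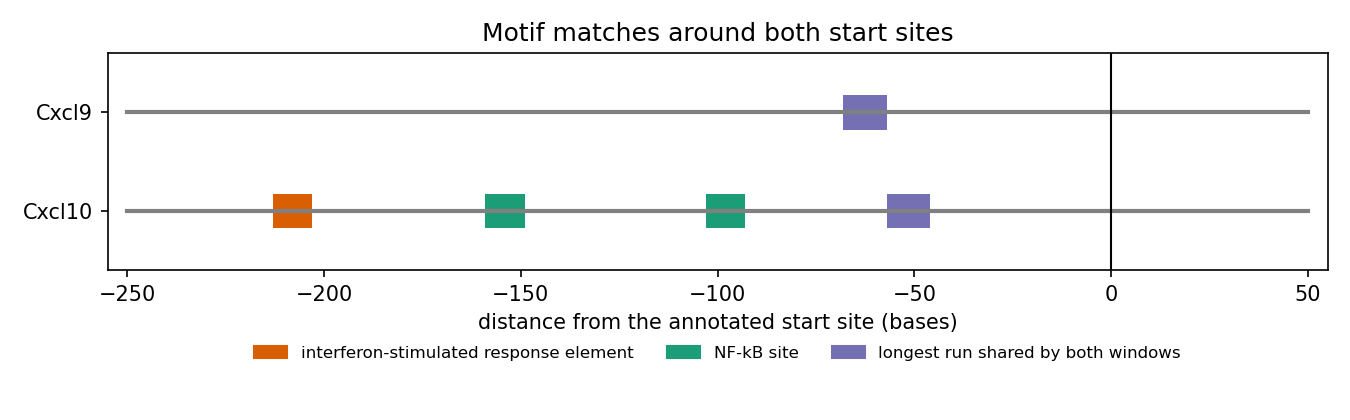
Matches around the annotated start sites of Cxcl9 (upper line) and Cxcl10 (lower line), with the distance from the start site in bases on the x axis and the start site as a vertical line. Cxcl10 has 1 interferon-stimulated response element and 2 NF-kB matches, Cxcl9 has neither, and the run shared by both starts 68 bases before the Cxcl9 start site and 57 bases before that of Cxcl10.

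Mean intensity ran from 156 to 218 over the 12 arrays, and 31.4% to 35.0% of the 45281 probes were detected. With 3 arrays per group, precision is limited by their number. Itgax, the gene of CD11c, was detected on 12 of 12 arrays, as was Ptprc, the leukocyte gene CD45. Levels below are log2 intensities after background correction and quantile normalization, and a level is compared only with the same probe on other arrays.

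Cxcl9 was highest in WT cells after nCB, and it was not higher after nCB in Mir22 KO cells. Its scanned intensity was 130, 136 and 148 in Mir22 KO nCB, 202, 126 and 151 in Mir22 KO PBS, 277, 229 and 292 in WT nCB, and 123, 148 and 136 in WT PBS. Every WT nCB array was above all 9 others before any normalization. The probe was detected on 12 of 12 arrays. After normalization its log2 level was 5.97, 5.94 and 6.61 in Mir22 KO nCB, 6.80, 6.48 and 6.34 in Mir22 KO PBS, 7.88, 7.25 and 7.82 in WT nCB, and 5.82, 5.94 and 5.95 in WT PBS. The lowest WT nCB array (7.25) was above the highest array of any other group (6.80, in Mir22 KO PBS), and the WT PBS arrays were close together.

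In rank, the Cxcl9 probe stood at the 52.1 to 63.0 percentile of all 12380 features tested on the Mir22 KO nCB arrays, against the 59.4 to 65.8 percentile on the Mir22 KO PBS arrays. The rank was the 71.8 to 79.3 percentile on the WT nCB arrays, against the 50.4 to 52.7 percentile on the WT PBS arrays. The Mir22 KO ranges overlapped and the WT ranges were separate.

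Cxcl10 was detected on the WT nCB arrays and on 2 Mir22 KO nCB arrays, and on no PBS array. Its scanned intensity was 92.7, 92.0 and 98.1 in Mir22 KO nCB, 85.3, 80.4 and 90.3 in Mir22 KO PBS, 128, 122 and 124 in WT nCB, and 81.9, 92.1 and 94.2 in WT PBS. The detection p in Mir22 KO nCB was 0.0128, 0.115 and 0.00427, so the second array did not detect the probe. On the PBS arrays it ran from 0.191 to 0.308 in Mir22 KO cells and from 0.105 to 0.608 in WT cells. The normalised log2 level was 4.72, 4.43 and 4.99 in Mir22 KO nCB, 4.32, 4.39 and 4.34 in Mir22 KO PBS, 5.95, 5.67 and 5.80 in WT nCB, and 4.23, 4.31 and 4.47 in WT PBS. The WT nCB arrays stood apart from all others, and the PBS values of both genotypes lay at the floor of detection, where they have no order. The lowest log2 level among detected probes was between 4.51 and 4.60 on the 12 arrays.

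**Figure D2:**
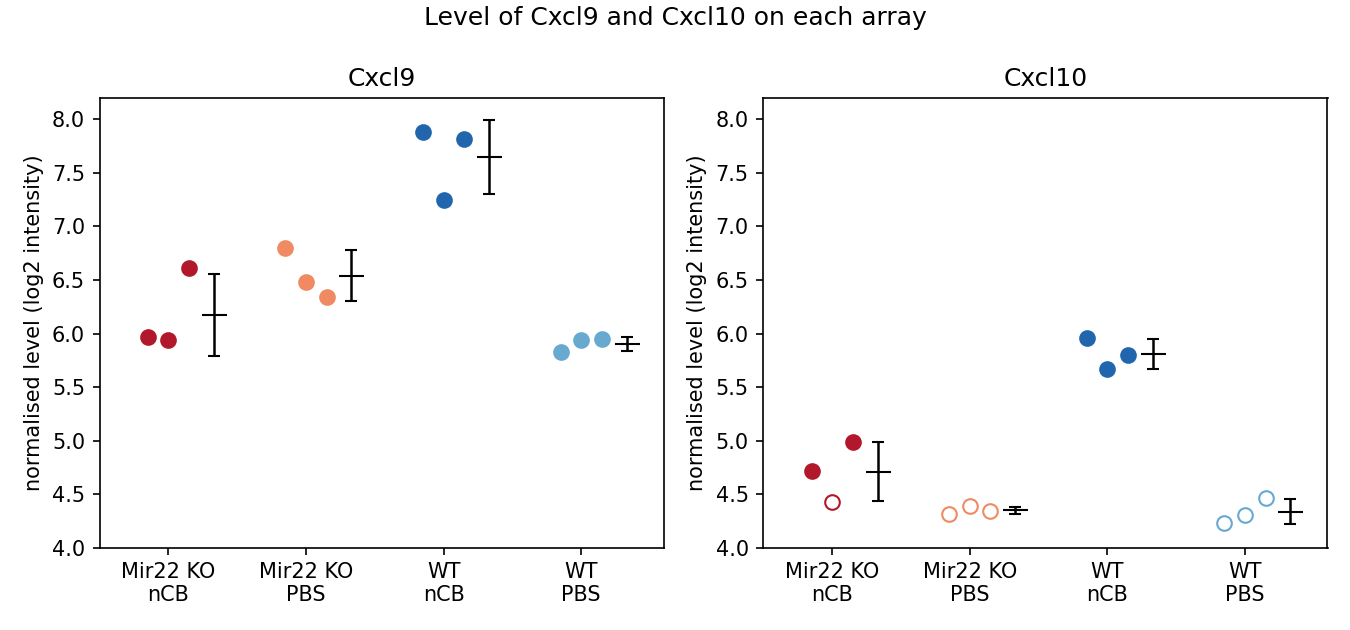
Normalised log2 level of Cxcl9 (left) and Cxcl10 (right) on each of the 12 arrays, by group. Points are arrays, filled where the probe was detected and open where it was not, and black bars give the group mean ± SD (n = 3). The WT nCB arrays are above every other array in both panels, and Cxcl10 is undetected on all 6 PBS arrays.

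In WT cells the Cxcl9 level averaged 7.65 ± 0.35 with nCB and 5.90 ± 0.07 with PBS (SD, n = 3 each), a log2 difference of 1.75 ± 0.20 (SE) or 3.36-fold. Cxcl10 averaged 5.81 ± 0.14 in WT nCB and 4.34 ± 0.12 in WT PBS (SD, n = 3 each). Since no WT PBS array detected it, that difference is a bound, at least 2.41-fold higher (log2 1.27) under the main processing only. The fitted log2 value of 1.47 ± 0.14 depends on the floor and on the processing. It was 0.73 with offset 50 and 0.46 without background correction, both smaller than that bound. Neither gene overlapped between the WT groups. Over all features, 15.4% were higher and 18.7% lower in WT nCB without overlap, and 8.88% were called higher and 9.22% lower (limma, Benjamini-Hochberg adjusted p under 0.05).

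In Mir22 KO cells the fitted differences of the ligands were of opposite sign, and the size of that for Cxcl10 depends on the floor. Cxcl9 averaged 6.17 ± 0.38 in Mir22 KO nCB and 6.54 ± 0.24 in Mir22 KO PBS (SD, n = 3 each), a log2 difference of -0.37 ± 0.20 (SE) with overlapping arrays. Without the third Mir22 KO nCB array, the highest of its group, the difference was -0.59. Cxcl10 averaged 4.71 ± 0.28 in Mir22 KO nCB and 4.35 ± 0.03 in Mir22 KO PBS (SD, n = 3 each). As the probe was undetected in Mir22 KO PBS, the difference is a bound, at least 1.11-fold under the main processing only. The fitted log2 difference was 0.10 without background correction and 1.72 in the matrix deposited by the authors. The Cxcl10 arrays did not overlap, as for 15.2% of all features in that direction (15.3% in the other), but the second Mir22 KO nCB array was itself below detection. Over all features, 8.69% were called higher and 7.29% lower with nCB in Mir22 KO cells.

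Under nCB both ligands were lower in Mir22 KO than in WT cells. Cxcl9 had a log2 difference of -1.48 ± 0.20 (SE), 2.78-fold lower, and Cxcl10 one of -1.10 ± 0.14 (SE), 2.14-fold lower. The second Mir22 KO nCB array did not detect Cxcl10, so the size of the Cxcl10 difference is uncertain. It was -0.34 without background correction and -2.63 in the matrix deposited by the authors. The highest Mir22 KO nCB array lay below the lowest WT nCB array by 0.64 log2 units for Cxcl9 and by 0.69 for Cxcl10. Of all features, 9.35% were lower in Mir22 KO under nCB without overlap and 1.49% were called lower.

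Under PBS only Cxcl9 could be compared between genotypes. Its log2 level was higher in Mir22 KO PBS than in WT PBS by 0.64 ± 0.20 (SE), 1.56-fold, and the normalised values did not overlap, as for 6.16% of all features in that direction and 7.04% in the other. The scanned intensities of those groups did overlap (126 to 202 in Mir22 KO PBS, 123 to 148 in WT PBS). Cxcl10 was below detection in both PBS groups, so no fold is given.

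The nCB effect on Cxcl9 in Mir22 KO cells minus that in WT cells was -2.11 ± 0.28 (log2, SE), and leaving out any 1 array kept it between -2.35 and -1.98. For Cxcl10 the same difference was fitted as -1.11 ± 0.19, with a range of -1.26 to -0.97, but 2 of its 4 groups were below detection. Over all features, 0.0404% were called higher and 0.0889% lower for this difference of effects. The test across all features thus called 5 higher and 11 lower of 12380, and the members are not given a p in it.

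**Figure D3:**
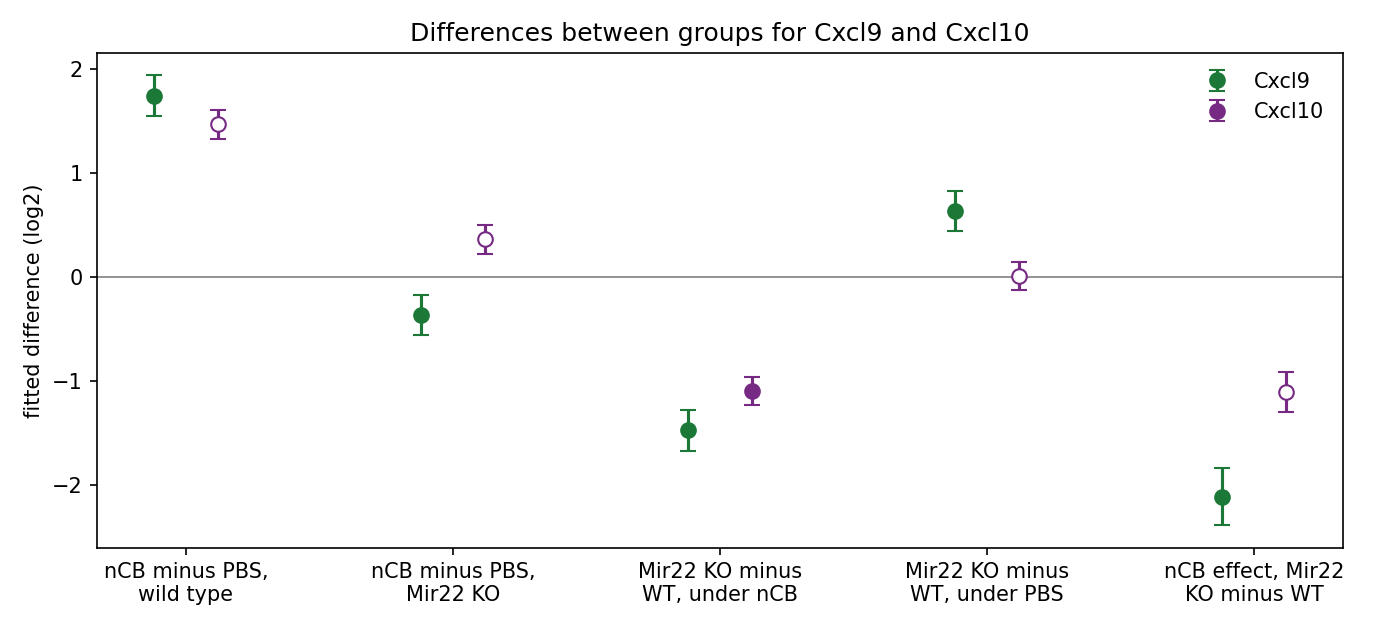
Fitted log2 differences ± SE for Cxcl9 (green) and Cxcl10 (purple) in the 5 comparisons, n = 3 arrays per group. Open points touch a group in which no array detected Cxcl10, so their size depends on the floor of detection. Both genes are above 0 for nCB in WT cells and below 0 for Mir22 KO minus WT under nCB, and they fall on opposite sides of 0 for nCB in Mir22 KO cells.

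Ordered by mean level, Cxcl9 ran WT nCB, Mir22 KO PBS, Mir22 KO nCB and WT PBS. Only the step from WT nCB to the next group was without overlap between neighbours, since Mir22 KO PBS overlapped Mir22 KO nCB, and Mir22 KO nCB overlapped WT PBS. Cxcl10 ran WT nCB, then Mir22 KO nCB, then both PBS groups at the floor. In the authors' deposited matrix, a different normalization of the same arrays, Cxcl9 averaged 5.73 in Mir22 KO nCB, 6.22 in Mir22 KO PBS, 7.51 in WT nCB and 5.37 in WT PBS on its log2 scale. Cxcl10 averaged 2.60 in Mir22 KO nCB, 0.88 in Mir22 KO PBS, 5.23 in WT nCB and 0.95 in WT PBS there, so WT nCB was highest for both genes in that matrix too.

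The receptor side of the pathway was weak on these arrays. Cxcr3 itself was detected on 6 of 12 arrays, with mean log2 levels of 4.52 ± 0.05 in Mir22 KO nCB, 4.50 ± 0.25 in Mir22 KO PBS, 4.58 ± 0.07 in WT nCB and 4.78 ± 0.27 in WT PBS (SD, n = 3 each). These lie at the floor of detection, and no comparison called it. Dpp4, the peptidase that trims and inactivates CXCR3 ligands, was detected on 12 of 12 arrays and differed with nCB by 0.06 ± 0.19 in Mir22 KO cells and by -0.04 ± 0.19 in WT cells (log2, SE). Ackr2, an atypical chemokine receptor, had log2 differences of -0.14 in Mir22 KO cells and -0.16 in WT cells and was not called.

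Among the 4 measured of 7 genes for CXCR3 and ligand handling, 1 was called. Sdc4, syndecan-4, a cell surface proteoglycan whose heparan sulfate chains bind chemokines, rose with nCB by 0.76 ± 0.18 in Mir22 KO cells and by 1.00 ± 0.18 in WT cells (log2, SE, limma adjusted p of 0.00904 and 0.00108). The median of the list was 0.04 in Mir22 KO and -0.10 in WT cells, beside -0.01 and -0.02 over all features. Cxcl11 and Ackr1 had no listed probe, and Sdc1 did not pass the filter.

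Of the interferons that induce both ligands, only Ifng could be read. It was detected on 5 of 12 arrays and its log2 levels lay at the floor, with group means of 4.41 to 4.69 and no call in any comparison. Ifnb1, Ifnar1 and Socs1 had no listed probe. The receptor chain Ifngr2 rose with nCB in both genotypes, by 0.88 ± 0.17 in Mir22 KO and by 0.80 ± 0.17 in WT cells (log2, SE). Its other 2 probes gave smaller differences, 0.07 and 0.14 in Mir22 KO and 0.25 and 0.38 in WT cells. Ifngr1, the ligand-binding chain, fell by 0.74 ± 0.13 in Mir22 KO cells (limma adjusted p = 0.000776) and had a difference of -0.26 ± 0.13 in WT cells, which was not called.

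In Mir22 KO cells 4 of the 18 measured receptor and signalling genes rose with nCB and 2 fell, beside 8.69% and 7.29% of all features, with a median log2 difference of 0.08. The 2 that fell went to 1 without Mir22 KO PBS array 1 or 3 or Mir22 KO nCB array 2 or 3, with median scaling and in the authors' matrix. In WT cells 7 rose and 1 fell, beside 8.88% and 9.22% of all features, also with a median of 0.08. The genes called higher in both genotypes were Socs3, the cytokine feedback inhibitor (1.38 ± 0.22 in Mir22 KO, 1.80 ± 0.22 in WT), Ifngr2, the kinase Jak2 (0.49 ± 0.11 in Mir22 KO, 0.76 ± 0.11 in WT) and Irf7, a driver of type I interferon transcription. Irf7 was undetected in Mir22 KO PBS, so its rise there is at least 1.21-fold. That call was lost without Mir22 KO nCB array 2, with median scaling and with offset 50 (adjusted p up to 0.08). The Irf7 call in WT cells was lost without WT PBS array 2 or WT nCB array 1. It was also lost with median scaling and without background correction (up to 0.087). Irf2, a repressor of interferon responses, fell in Mir22 KO cells (-0.41 ± 0.12) and was the gene that fell in WT cells (-0.53 ± 0.12). When arrays were scaled by their medians instead, 2 genes of the list were called higher in each genotype, and 1 lower in Mir22 KO and 0 lower in WT cells.

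Irf9, the DNA-binding subunit of the complex that type I interferons activate, was the signalling gene called between genotypes under nCB. It averaged 6.73 ± 0.08 in Mir22 KO nCB, 6.84 ± 0.13 in Mir22 KO PBS, 7.41 ± 0.17 in WT nCB and 6.79 ± 0.07 in WT PBS (log2, SD, n = 3 each). Like the ligands, it was highest in WT nCB, and its other groups were close together. With nCB it had a difference of -0.10 ± 0.12 in Mir22 KO cells and rose by 0.62 ± 0.12 in WT cells (limma adjusted p = 0.00162, but 0.166 with median scaling). It was lower in Mir22 KO under nCB by a log2 difference of -0.68 ± 0.12 (adjusted p = 0.00524), a call that was lost with median scaling (adjusted p = 0.115). The difference of its nCB effects, -0.72 ± 0.17, was not called (adjusted p = 0.152). Its partner Stat2 was not called in Mir22 KO cells (0.08 ± 0.11) and rose in WT cells by 0.35 ± 0.11 (adjusted p = 0.0485). Irf1, which interferon-gamma induces and which acts on both chemokine genes, had log2 differences of -0.28 ± 0.14 in Mir22 KO and -0.07 ± 0.14 in WT cells and was not called, nor was Jak1 (-0.10 in Mir22 KO, -0.17 in WT). The other Irf1 probes that passed the filter gave -0.59 to -0.29 in Mir22 KO and -0.36 to -0.04 in WT cells.

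Among 16 measured of 26 genes induced by interferon-gamma, 6 rose with nCB in WT cells and 0 fell, beside 8.88% and 9.22% of all features, with a median log2 difference of 0.27 beside -0.02 over all features. With median scaling 2 of the 16 were called higher. Gbp3, a guanylate-binding protein, rose by 1.10 ± 0.17, and Gbp2 of the same family by 0.60 ± 0.14 (log2, SE), a call that was lost with median scaling (adjusted p = 0.313). Tap1, the peptide transporter of MHC class I loading, rose by 0.69 ± 0.20, a call that was lost with median scaling, in the authors' matrix and without WT PBS array 1 or 3 or WT nCB array 1 or 2 (adjusted p up to 0.118). Upp1, uridine phosphorylase, rose by 1.02 ± 0.15, and the others called were Igtp and Fcgr1, a high-affinity Fc receptor. In Mir22 KO cells 1 of the 16 rose and 1 fell, beside 8.69% and 7.29% of all features, with a median of 0.23. The riser was Upp1, at least 3.82-fold since Mir22 KO PBS did not detect that probe, while its other probe gave 0.77. Psmb8, an immunoproteasome subunit, fell by 0.34 ± 0.11. That call ended without any 1 of the 6 Mir22 KO arrays or without WT PBS array 2 or 3. It also ended with median scaling, in the authors' matrix and with the replicate number as a block (adjusted p up to 0.257).

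Under nCB the median difference between genotypes was -0.34 for these 16 genes, beside 0.01 over all features. Beside 1.93% of all features higher and 1.49% lower, 0 of the 16 were higher and 4 were lower in Mir22 KO cells. They were Gbp3 (-0.88 ± 0.17), Ciita, the master activator of MHC class II genes (-0.65 ± 0.14), Fcgr1 (-0.61 ± 0.12) and Psmb8 (-0.54 ± 0.11). The count of 4 went to 1 without the first WT nCB array and to 2 without the second Mir22 KO nCB array. Gbp3 was among those lost without either array, and it was lost in the authors' matrix (adjusted p up to 0.077). Ciita was lost without either array too, and without WT nCB array 3 or Mir22 KO nCB array 1. Median scaling and the authors' matrix also ended the Ciita call (up to 0.14). Fcgr1 kept its call without any 1 array but lost it with median scaling (0.21). Psmb8 lost its call without WT nCB array 1 or 2 and with median scaling (up to 0.12). Median scaling gave 1 such call and the authors' matrix 2. Under PBS, 2 of the 16 were lower in Mir22 KO, where 0.412% of all features were called higher and 0.533% lower. Ciita had a log2 difference of -0.74 ± 0.14 there (limma adjusted p = 0.0186), and Upp1 was at least 1.41-fold lower, although its other probe gave 0.04. Without the first WT PBS array, or without either the second or the third Mir22 KO PBS array, neither of the 2 was called.

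Genes induced by type I interferons had calls in 1 direction for nCB. Of 18 measured of 27 listed, 10 rose with nCB in WT cells and 0 fell, beside 8.88% and 9.22% of all features, with a median log2 difference of 0.64 beside -0.02 over all features. The largest were Usp18, which removes the ubiquitin-like ISG15 (1.96 ± 0.24), Rsad2, the antiviral enzyme viperin (1.65 ± 0.23), Oasl2, an oligoadenylate synthetase relative (1.49 ± 0.24), and Ifit2, which binds viral RNA (1.42 ± 0.16). In Mir22 KO cells 6 rose and 0 fell, beside 8.69% and 7.29% of all features, with a median of 0.30. Usp18 rose by 1.65 ± 0.24, Oasl2 by 1.08 ± 0.24, Rsad2 by 1.07 ± 0.23 and Isg15, the ubiquitin-like modifier, by 0.79 ± 0.25. The second Oasl2 probe did not follow the first, with -0.08 in Mir22 KO and 0.16 in WT cells. The second Usp18 probe gave smaller rises, 0.45 in Mir22 KO and 0.86 in WT cells, as did that of Ifit2, 0.89 in WT cells. The Oasl2 call in Mir22 KO cells was lost in the authors' matrix (adjusted p = 0.056), as was the Usp18 call in WT cells (0.061). The count of 6 went to 3 without the third Mir22 KO PBS array, without background correction, with offset 50 and in the authors' matrix. The Isg15 call was lost in those processing settings and with the replicate number as a block. It was also lost without any 1 Mir22 KO PBS array, Mir22 KO nCB array 2 or 3, or WT PBS array 1 (adjusted p up to 0.176).

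Under nCB the median difference between genotypes was -0.42 for the 18 type I genes, beside 0.01 over all features. Of the 18, 6 were lower in Mir22 KO cells and 0 were higher, beside 1.49% and 1.93% of all features. Ifit2 had the largest, -1.17 ± 0.16 (limma adjusted p = 0.000565), and like Cxcl10 it was highest in WT nCB: it averaged 4.89 ± 0.11 in Mir22 KO nCB, 4.58 ± 0.27 in Mir22 KO PBS, 6.06 ± 0.28 in WT nCB and 4.64 ± 0.06 in WT PBS. Usp18 (-1.11 ± 0.24), the membrane tether Bst2 (-1.08 ± 0.23), Rsad2 (-0.99 ± 0.23), Ifit3 (-0.95 ± 0.17) and Oasl1 (-0.63 ± 0.14) were the others. The count of 6 went to 2 without the first WT nCB array or without the second Mir22 KO nCB array, and to 0 in the authors' matrix. Ifit2 kept its call without any 1 array. Usp18 and Rsad2 lost theirs without WT nCB array 1 or 3 or Mir22 KO nCB array 1 or 2 (adjusted p up to 0.496 and 0.205 over the alternatives), and Bst2 without WT nCB array 1 or 2 or Mir22 KO nCB array 2 (up to 0.132). Under PBS 0 of the 18 were called, with a median of -0.15.

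No gene of the 3 interferon lists was called for the difference of the nCB effect between genotypes. The median of that difference was -0.29 over the type I genes, 1 of 18 above 0, and -0.16 over the interferon-gamma genes, 5 of 16 above 0, beside 0.02 over all features.

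**Figure D4:**
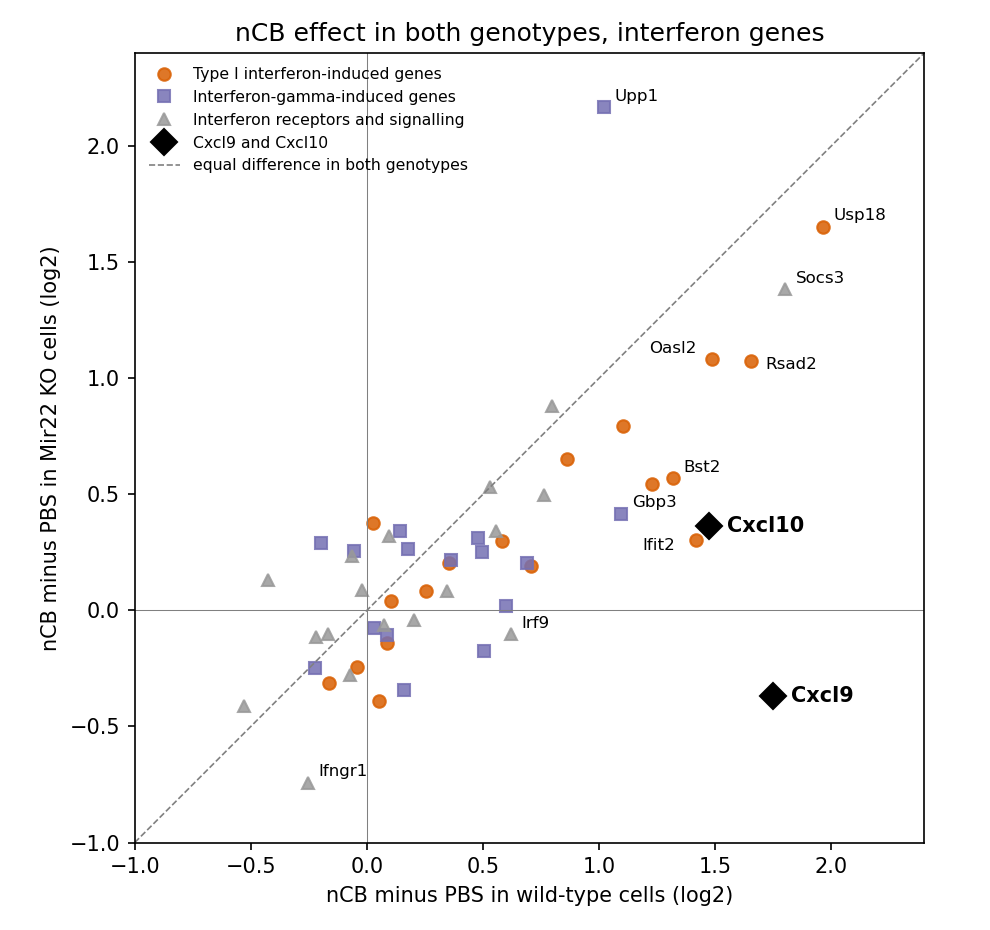
Log2 difference between nCB and PBS in WT cells (x axis) and in Mir22 KO cells (y axis) for the measured genes of 3 interferon lists and, as black diamonds, Cxcl9 and Cxcl10. Each point is 1 gene, by its probe with the highest mean, and the dashed line marks equal differences in both genotypes. Cxcl9 lies below 0 on the y axis at an x value of 1.75, the place of Cxcl10 depends on the floor of detection, and Usp18, Rsad2 and Socs3 are above 1 on both axes.

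NF-kB is the other known input to Cxcl10. Of 13 measured of 14 NF-kB genes, 4 rose and 2 fell with nCB in WT cells, beside 8.88% and 9.22% of all features, with a median of 0.09. The feedback inhibitor Nfkbia rose by 0.88 ± 0.15, the subunit Relb by 0.69 ± 0.17, the kinase Ikbke by 0.68 ± 0.18 and the cytokine Tnf by 0.58 ± 0.19 (log2, SE). The Tnf call was lost without any 1 WT PBS array, WT nCB array 1 or 3, Mir22 KO PBS array 1 or Mir22 KO nCB array 2. It was also lost with median scaling, with offset 50, without background correction and in the authors' matrix (adjusted p up to 0.297). The count of 4 went to 2 without WT PBS array 1 or 3 or WT nCB array 1 and in the authors' matrix, and to 1 with median scaling. The genes that fell were the adaptor Myd88 (-0.49 ± 0.12) and the kinase Ikbkb (-0.44 ± 0.13). That count of 2 went to 1 without WT PBS array 1 or 2 or WT nCB array 2, and to 0 with median scaling. The call of Relb was lost without WT PBS array 3 or WT nCB array 2 and with median scaling (up to 0.091). Ikbke lost its call without WT PBS array 1 or WT nCB array 1, with median scaling and in the authors' matrix (up to 0.09). In Mir22 KO cells 1 rose, Ikbke by 0.69 ± 0.18, and 0 fell, beside 8.69% and 7.29% of all features, with a median of 0.02. That call was lost without Mir22 KO PBS array 3 or Mir22 KO nCB array 1 or 2. Median scaling and the authors' matrix ended it too (adjusted p up to 0.105). The median was 0.04 between genotypes under nCB, with 0 calls in either direction, as also under PBS and for the difference of effects.

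CXC chemokines other than Cxcl9, Cxcl10 and Cxcl11 were a mixed group. Of 9 measured of 11, 2 rose and 1 fell with nCB in each genotype, beside 8.69% and 7.29% of all features in Mir22 KO and 8.88% and 9.22% in WT cells. Cxcl16, a transmembrane chemokine that binds CXCR6, rose with nCB by 2.77 ± 0.15 in Mir22 KO and by 3.01 ± 0.15 in WT cells (log2, SE). Pf4, platelet factor 4, which also stands in the monocyte and interstitial macrophage list below, rose by 1.28 ± 0.26 in Mir22 KO and by 1.73 ± 0.26 in WT cells. Cxcl2, a neutrophil attractant that binds CXCR2, fell in Mir22 KO cells by 1.74 ± 0.33, while its difference in WT cells was -0.02 ± 0.33. Ppbp, a platelet chemokine, fell in WT cells by 0.62 ± 0.18. That call was lost without WT PBS array 1 or 2 or WT nCB array 1 or 2. Median scaling and the authors' matrix ended it too (adjusted p up to 0.103). Under nCB Cxcl16 was lower in Mir22 KO, with a log2 difference of -0.65 ± 0.15. That call was lost without WT nCB array 1 or 3 or Mir22 KO nCB array 1 or 2. It was also lost with median scaling, in the authors' matrix and with the replicate number as a block (adjusted p up to 0.157). Under PBS and for the difference of effects, 0 of the list were called.

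The chromosomal neighbours were measured because Cxcl9 and Cxcl10 lie close together on chromosome 5. In RefSeq the order of genes there is Uso1, Ppef2, Naaa, Sdad1, Cxcl9, Art3, Cxcl10, Cxcl11, Nup54 and Scarb2. Of 12 neighbours on the list 9 were measured, and 0 were called in any of the 5 comparisons. By the probe used per gene, their log2 differences with nCB ran from -0.48 to 0.39 in Mir22 KO cells and from -0.35 to 0.16 in WT cells. Their other probes that passed the filter ran from -0.52 (Rchy1) to 0.70 (Cdkl2) in Mir22 KO cells. In WT cells those probes ran from -0.39 (Cdkl2) to -0.10 (Scarb2). Sdad1, a ribosome biogenesis factor directly beside Cxcl9, had 0.39 ± 0.13 in Mir22 KO and -0.03 ± 0.13 in WT cells, and Nup54, a nuclear pore subunit, had 0.14 ± 0.15 in WT cells on 4 detecting arrays. Art3, between both chemokine genes, did not pass the filter.

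Over the 12 arrays Cxcl10 was the fifth most like Cxcl9 of 9808 other genes, with a Pearson r of 0.886 between log2 levels. Ahead of it came Rps12 (0.940), Usp53 (0.919), Klrb1b (0.898) and Plek2 (0.890), and after it Gbp2, Irf9 and Siva1 (0.877 to 0.878). Of these, Klrb1b, an inhibitory receptor of natural killer cells, had the largest differences, 0.03 with nCB in Mir22 KO cells, 1.47 in WT cells and -1.24 between genotypes under nCB. Rps12, a ribosomal protein gene, was first with nCB differences of -0.07 in Mir22 KO and 0.26 in WT cells that were not called.

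The genes most like Cxcl10 were Vsig4 (0.963), Ifi205 (0.959), H2-M3 (0.957), Gbp3 (0.956), Cd84 (0.953), 1700025G04Rik (0.951), Cyp2d9 (0.948) and Csprs (0.948), and Cxcl9 was number 80. Vsig4, a complement receptor of macrophages, had log2 differences of 0.64 with nCB in Mir22 KO cells, 1.87 in WT cells and -1.09 between genotypes under nCB. Ifi205, an interferon-inducible gene, had 0.81, 2.01 and -1.31 in the same order. These correlations describe 12 arrays that share genotype and exposure within groups of 3, and the Cxcl10 values below detection enter them.

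With the group means removed, r between Cxcl9 and Cxcl10 was 0.720 over the 12 arrays. By that measure Cxcl10 was number 133 for Cxcl9, and Cxcl9 number 151 for Cxcl10. The genes most like Cxcl9 were then Olfml2b (0.913), Sec13, Ddx52, Znrd2 and Mef2c (0.879), and those most like Cxcl10 were Relt (0.933), Ccl12 (0.932), Sntb1, B3gat1 and Il7 (0.915). Apart from Olfml2b in WT cells, Mef2c in Mir22 KO cells and Ccl12 in both genotypes, these genes were not called for nCB. Ccl12, a ligand of CCR2, had log2 differences of 2.72 in Mir22 KO and 3.62 in WT cells.

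Markers of other cells changed with the same groups, and in bulk RNA fewer cells of a type cannot be told apart from less RNA per cell. Over all features, 8.69% were called higher and 7.29% lower with nCB in Mir22 KO cells, and 8.88% and 9.22% in WT cells. Between genotypes, 1.93% were called higher and 1.49% lower in Mir22 KO under nCB, and 0.412% and 0.533% under PBS. Alveolar macrophage markers fell with nCB (6 of 10 measured in Mir22 KO cells, 7 of 10 in WT cells, 0 higher in either). Under nCB 3 of 10, Krt79, Marco and Il18, were higher in Mir22 KO than in WT. That count was 2 to 6 when 1 array at a time was left out and 1 to 4 over the other alternatives. Krt79 kept its call in all 17 alternatives, Marco lost it in 6, and Il18 lost it with median scaling (adjusted p = 0.386). The other Il18 probe gave -0.21 between genotypes under nCB. With nCB it gave -0.60 in Mir22 KO and 0.08 in WT cells. The summed normalised level of the alveolar macrophage markers was 19158 to 20671 in Mir22 KO nCB, 21992 to 24751 in Mir22 KO PBS, 13121 to 16647 in WT nCB and 23176 to 24453 in WT PBS. WT nCB thus had the lowest sums of this list where both chemokines were highest. Conventional dendritic cell markers rose (5 of 11 in Mir22 KO cells, and 6 of 11 in WT, with 1 lower), and their sum was 1059 to 1756 in Mir22 KO nCB, 533 to 615 in Mir22 KO PBS, 1839 to 2111 in WT nCB and 735 to 790 in WT PBS. WT nCB had the highest sums, and every nCB array was above every PBS array. Under nCB 2 of 11, Ccl17 and Mgl2, were lower in Mir22 KO cells, and under PBS Mgl2 was. Without Mir22 KO nCB array 2, or in the authors' matrix, neither was called under nCB. The PBS call was lost without any 1 WT PBS array, Mir22 KO PBS array 1 or 3, or WT nCB array 1 or 2. It was also lost without background correction, in the authors' matrix and with the replicate number as a block (adjusted p up to 0.207).

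Monocyte and interstitial macrophage markers rose with nCB (8 of 12 in Mir22 KO cells, and 7 of 12 in WT, with 2 lower). Of all features, 8.69% were called higher and 7.29% lower in Mir22 KO, and 8.88% and 9.22% in WT cells. Under nCB 4 of these 12 markers were lower and 1 higher in Mir22 KO, beside 1.49% and 1.93% of all features. Those counts were 1 to 4 lower and 0 to 2 higher when 1 array at a time was left out. Over the other alternatives they were 0 to 4 lower and 0 to 1 higher. The genes called lower, C1qa, C1qb, C1qc and Apoe, all lost that call in the authors' matrix. The sums of these markers were 9310 to 12202 in Mir22 KO nCB, 8100 to 8768 in Mir22 KO PBS, 11487 to 12478 in WT nCB and 7300 to 8106 in WT PBS. Markers of T and natural killer cells, which carry CXCR3, had sums of 2264 to 2872 in Mir22 KO nCB, 3088 to 3446 in Mir22 KO PBS, 2080 to 2675 in WT nCB and 2991 to 3487 in WT PBS. These sums were lower on every nCB array than on every PBS array, in both genotypes. A sum of linear intensities is weighted to the brightest probes. The median log2 difference of the list with nCB was -0.09 in Mir22 KO (4 genes above 0, 8 below) and -0.12 in WT cells (5 above, 7 below). Of 12 measured, Cd2 fell with nCB in Mir22 KO cells, Cd3g rose and Cd2 fell in WT cells, and Prf1 was higher in Mir22 KO under nCB, where 1.93% of all features were called higher and where its other probe gave -0.01. The Cd3g call was lost without WT PBS array 2 or 3 or WT nCB array 1 and in the authors' matrix (adjusted p up to 0.156). The Prf1 call was lost without WT nCB array 2 or 3 or Mir22 KO nCB array 1 or 2. Median scaling and the authors' matrix ended the Prf1 call too (up to 0.167). Cd4 and Tbx21 were undetected on every array of 3 groups, all but Mir22 KO PBS.

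The remaining marker lists had fewer calls, and the shares of all features called with nCB were 8.69% higher and 7.29% lower in Mir22 KO and 8.88% higher and 9.22% lower in WT cells. Plasmacytoid dendritic cell markers had 2 of 5 higher with nCB in each genotype and 1 lower in Mir22 KO under nCB, although Bst2 and Irf7 are interferon-induced and stand in the lists above. The 2 higher went to 1 without Mir22 KO nCB array 2 in Mir22 KO cells, and without WT PBS array 2 or WT nCB array 1 in WT cells. With median scaling 0 of the list were called higher in Mir22 KO cells. The sums of these markers were 449 to 492 in Mir22 KO nCB, 300.0 to 475 in Mir22 KO PBS, 547 to 672 in WT nCB and 347 to 593 in WT PBS. Of 8 measured neutrophil markers, 3 rose in Mir22 KO cells, and 1 rose and 3 fell in WT cells, with sums of 2350 to 3361 in Mir22 KO nCB, 1431 to 2365 in Mir22 KO PBS, 2160 to 2674 in WT nCB and 1742 to 2846 in WT PBS. The 3 that fell went to 1 without WT PBS array 1 or 2 and in the authors' matrix, and the 3 that rose went to 1 with median scaling. B cell markers had 2 of 5 lower with nCB in WT cells, with sums of 394 to 568 in Mir22 KO nCB, 439 to 645 in Mir22 KO PBS, 362 to 535 in WT nCB and 559 to 938 in WT PBS. That count ran from 1 (without WT PBS array 1 or WT nCB array 2 or 3) to 3 when 1 array at a time was left out. Epithelial and endothelial markers had 1 of 8, Pecam1, lower with nCB in WT cells, with sums of 6750 to 8022 in Mir22 KO nCB, 3878 to 7237 in Mir22 KO PBS, 6062 to 7059 in WT nCB and 6791 to 9219 in WT PBS. The Pecam1 call was lost in 9 of 17 alternatives, among them without WT PBS array 1 or 3, WT nCB array 2 or 3 or Mir22 KO nCB array 2 (adjusted p up to 0.189). No marker with a listed probe was undetected on all 12 arrays. The part of any of these cell types in the Cxcl9 and Cxcl10 levels was not tested.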

How the data were processed

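RNA of 12 samples was labelled from 100 ng of total RNA and read on Illumina bead arrays. Per the labels, GenomeStudio was used (version not given in the sources used here), and the deposited table holds the scanned intensity of 45281 probes. The deposited detection p-value of each probe moves, judged from the values, in steps of 1 in 936. The matrix deposited by the authors holds log2 values of 24952 probes. Its median was 3.12 on every array, and the normalization is not stated. It was used as an alternative. A microarray genome build was not given in the sources used here.

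Here the intensities were background-corrected and quantile-normalized with the neqc function (limma 3.58.1, R 4.3.3) (background from the detection p-values, offset 16). A probe was kept if 3 or more of the 12 arrays detected it (detection p under 0.05; 17346 probes), and the probe with the highest mean was used per symbol. This gave 12380 features, 9809 with a symbol. Symbols came from the platform annotation, which lists 20501 probes with 1 symbol, 11 with several and 4440 with none, all within the matrix of the authors.

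limma fitted 1 mean per group to all 12 arrays (8 residual and 6.86 prior degrees of freedom). A feature was called at a Benjamini-Hochberg adjusted p under 0.05 over all features of that comparison, two-sided. The fit was tested on simulated data. Where no array of a group detected any probe of a gene, a fold is a bound against the lowest log2 intensity among detected probes on each array of that group, or the gene's own value if higher. Summed marker levels add linear normalised intensities.

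Cxcl9, Cxcl10 and the gene lists were chosen with earlier results of these data known. Named genes were the fixed pathway genes, the chromosome 5 neighbours, up to 4 called members with the largest difference per list and comparison, and the 8 (with group means removed, 5) features most like each chemokine gene. Igtp, Irf2, Ifit3, Oasl1, Myd88, Ikbkb and Ackr2 complete a count and were named after their values were seen. Replicate numbers did not pair the arrays, as 5 of 18 pairs of equal number correlated over 0.1 after removal of group means (range -0.30 to 0.22). Promoter and microRNA sequences came from RefSeq tables (GRCm38.p6).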

Additional observations from a re-analysis of the deposited data

How the results depend on the processing

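Of the 10 differences given for Cxcl9 and Cxcl10, 9 kept their sign under all 17 alternatives. The exception was Cxcl10 under PBS, undetected in both groups (-0.07 to 0.08). Sizes moved with the offset, which shrinks differences of dim probes by construction, and in the authors' matrix, where the cause was not tested. For Cxcl9, no background correction, offset 50 and the authors' matrix gave log2 differences of 0.98, 1.33 and 2.14 for nCB in WT cells, of -0.85, -1.14 and -1.78 for Mir22 KO under nCB, and of -1.15, -1.58 and -2.62 for the difference of effects. Under PBS, no background correction gave 0.30. For Cxcl10 the same 3 settings gave 0.46, 0.73 and 4.28 for nCB in WT cells, 0.10, 0.15 and 1.72 in Mir22 KO cells, -0.34, -0.58 and -2.63 for Mir22 KO under nCB, and -0.35, -0.58 and -2.56 for the difference of effects. Leaving out 1 array at a time gave Cxcl9 1.64 to 1.94, -0.59 to -0.24, -1.70 to -1.36 and 0.50 to 0.74, and Cxcl10 1.41 to 1.53, 0.23 to 0.50, -1.25 to -0.95 and -0.04 to 0.08, in the order nCB in WT, nCB in Mir22 KO, Mir22 KO under nCB and under PBS.

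Counts of all features moved more. Median scaling called 531 higher and 754 lower for nCB in WT cells (1099 and 1141 in the main setting), 497 and 300 in Mir22 KO cells (1076 and 902), 38 and 81 for Mir22 KO under nCB (239 and 185), 18 and 60 under PBS (51 and 66), and 0 and 6 for the difference of effects (5 and 11). For Mir22 KO under nCB the authors' matrix called 81 higher and 59 lower, and no filter on dim probes called 113 and 108. Under PBS the authors' matrix called 30 higher. For the difference of effects, no background correction called 8 higher, offset 50 called 10, the authors' matrix 2 and 4 lower, and no filter 5 lower. With the replicate number as a block 2 were called higher for the difference of effects, and the block moved no other count of all features by over 1.5 times. Leaving out 1 array gave 855 to 1114 higher and 814 to 1179 lower for nCB in WT cells, 804 to 1087 and 647 to 907 in Mir22 KO cells, 85 to 321 and 75 to 202 for Mir22 KO under nCB (both lowest without Mir22 KO nCB array 2), 30 to 55 and 39 to 69 under PBS (both lowest without WT PBS array 1), and 0 to 17 and 6 to 14 for the difference of effects (both lowest without Mir22 KO PBS array 3 and highest without Mir22 KO nCB array 3).

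Of 98 changes of named genes, 53 kept their call under every alternative, 45 lost it under at least 1 and 0 reversed. The cause of these losses was not tested. A block for slide was not run, since the files give no slide, nor another probe for Cxcl9 or Cxcl10, which have 1 annotated probe each (probes outside the authors' matrix carry no symbol here). Cxcl10 values below detection limit what can be said of it under PBS.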
